A study of Caenorhabditis elegans with 9 samples.

Results

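The genes described here are the Hedgehog-related and Patched-related genes of *Caenorhabditis elegans*, taken by name: symbols that start with *wrt-*, *grd-*, *grl-*, *ptr-* or *ptc-*, plus *hog-1* and *qua-1*. On the Affymetrix *C. elegans* Genome Array, 95 probe sets were assigned to 1 such gene alone, and they covered 80 genes of the 17118 genes named alone on the array. The 80 genes were 10 *wrt* (warthog), 12 *grd* (groundhog), 30 *grl* (ground-like), *hog-1* and *qua-1*, together 54 Hedgehog-related genes, and 2 *ptc* (patched) and 24 *ptr* (patched-related) genes. Another 2 probe sets named a member together with another gene and were left out. RNA came from whole L1 larvae of the wild-type N2 Bristol strain. Each array held RNA of a pellet of many pooled larvae. Their mothers had been moved as L4 larvae to bacteria expressing double-stranded RNA at 25 °C. The larvae hatched without food and then ate bacteria with the same construct for 3 h. Bacteria expressing *gfp* double-stranded RNA served as reference, and the other groups received *let-418* or *mep-1* double-stranded RNA, with 3 arrays in each of the 3 groups. *let-418* encodes a Mi-2 chromatin-remodelling ATPase and *mep-1* a zinc-finger protein, and the comparisons ask which transcripts differ when either is targeted.

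In insects and vertebrates, a secreted Hedgehog protein binds the membrane protein Patched and thereby releases Smoothened. *C. elegans* has no clear Hedgehog or Smoothened orthologue, but it carries expanded families at both ends of this pathway. The WRT, GRD and GRL proteins are secreted proteins with family-specific amino-terminal domains, and some also carry the Hog domain, the self-processing part of Hedgehog. PTC and PTR proteins span the membrane many times and carry a sterol-sensing domain. Many of these genes are known for expression in the epidermis, in glia and in other cells that secrete cuticle, for roles in molting, and for transcript levels that rise and fall with the molting cycle.

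Signals are MAS5 intensities scaled to a common trimmed mean of 330 per array, and a gene stands for its brightest probe set. Because probe sets differ in brightness for the same amount of RNA, signals are compared between arrays. A brighter probe set is not read as more RNA of its gene, and sums of signals weigh bright probe sets most. Log2 fold changes (log2 FC), their standard errors (SE) and adjusted p-values come from limma, fitted to all 22548 probe sets and adjusted by Benjamini and Hochberg. A gene was called, and is said to have risen or fallen, at an adjusted p under 0.05 and a change of at least 2-fold. Of the 80 genes, 13 had group means under 21.6, the 25th percentile of all signals, in all 3 groups. These were *grd-7*, *grd-8*, *grd-9*, *grd-16*, *grl-11*, *grl-17*, *grl-18*, *grl-23*, *grl-24*, *grl-29*, *grl-30*, *grl-31* and *wrt-7*. All are Hedgehog-related genes, and 21.2% of all genes on the array met the same condition. None of the 13 was called in any comparison.

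The signals of the targeted genes were not lower on the arrays labelled for them. *let-418* had signals of 1627, 1509 and 2322 where the label was *let-418(RNAi)*, against 831, 1033 and 935 in the *gfp(RNAi)* group (log2 FC 0.94, SE 0.18, adjusted p = 0.0043 from limma). *mep-1* had signals of 1532, 1647 and 1611 where the label was *mep-1(RNAi)*, against 1586, 1560 and 1435 in the *gfp(RNAi)* group (log2 FC 0.07, SE 0.12, adjusted p = 0.777 from limma). Each group below is the set of arrays labelled with that name, and every direction rests on those labels. Trimmed means before scaling ran from 209 to 436, and arrays of a group correlated at 0.949 or more on the log2 scale. Because whole larvae were used, fewer cells of a type and less RNA per cell cannot be told apart.

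One control array stood apart for these genes. On *gfp(RNAi)* replicate 3, 49 of the 80 genes had their lowest *gfp(RNAi)* signal (38.5% of all genes did), and 33 lay at least 2-fold below the mean of replicates 1 and 2 (10.0% of all genes did). Among the 46 members with a mean *gfp(RNAi)* signal of at least 100, a limit chosen after the values were seen, 23 were at least 2-fold low on that array, against 4.70% of the 8314 genes on the array above the same limit. On each of the other 8 arrays, 0 or 1 of these 46 members lay as far below their replicates.

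The size of this gap differed among the families. Over the 46 members, the median log2 difference of *gfp(RNAi)* replicate 3 from the other controls was -0.98, against 0.03 for all genes above the limit. It was -1.33 for the 24 Hedgehog-related members and -0.36 for the 22 *ptc* and *ptr* members. At least 2-fold low on that array were 14 of the 24 and 9 of the 22, against 4.70% of all genes above the limit. *ptr-16* read 224, 174 and 23.9 on *gfp(RNAi)* replicates 1 to 3, the widest gap of all members at 8.24-fold. *grl-15* read 1821, 1457 and 352, and *grl-5* 1025, 878 and 213. Both sit more than 4-fold low on replicate 3 (4.62-fold and 4.46-fold), as do *grd-14*, *grd-5*, *grl-16*, *grl-1*, *grl-6*, *grl-3* and *grd-2*. Other members hardly moved: *ptr-22* read 197, 197 and 201, *grd-10* 830, 768 and 780, and *grl-9* 143, 144 and 142.

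**Figure D1:**
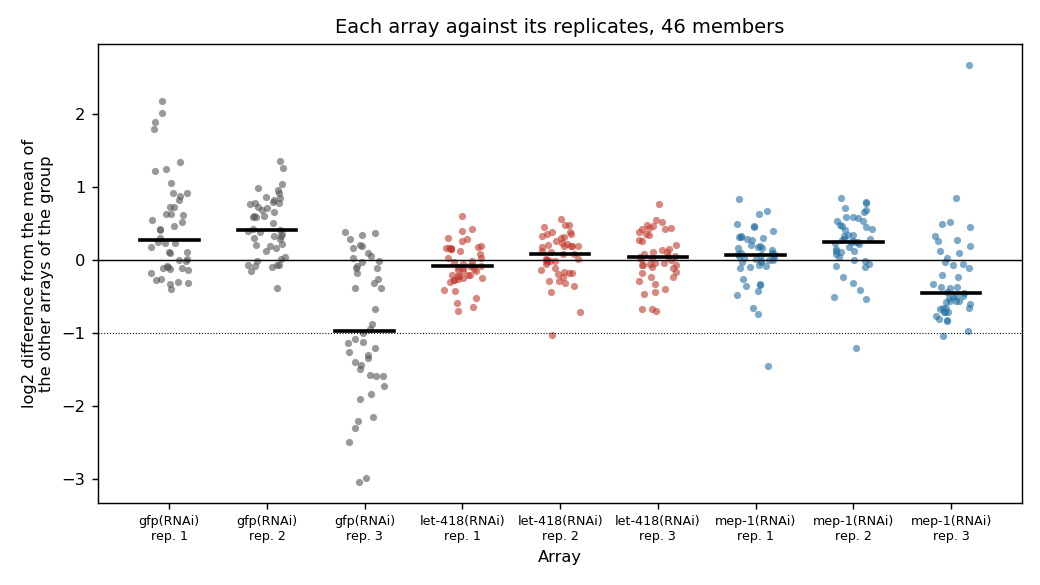
The log2 difference of each array (x axis) from the mean of the other arrays of its group (y axis), for the 46 members with a mean *gfp(RNAi)* signal of at least 100. Each point is a gene, the bar is the median and the dotted line marks 2-fold lower. Points of *gfp(RNAi)* replicate 3 reach down to -3.04 with a median of -0.98, while the medians of the other 8 arrays lie between -0.45 and 0.41.

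*mep-1(RNAi)* replicate 3, which has the same batch number (here the replicate number), was also low, by less. It was the lowest *mep-1(RNAi)* array for 32 of the 46 members (2845 of the 8314 genes above the limit), with a median log2 difference of -0.45, and *let-418(RNAi)* replicate 3 was not (0.03). The summed signal of all 80 members was 38308, 38771 and 24926 on the *gfp(RNAi)* arrays, 39947 to 44244 on the *let-418(RNAi)* arrays and 37044, 41747 and 30914 on the *mep-1(RNAi)* arrays. Of 7 epidermal markers, 4 had their lowest control signal on *gfp(RNAi)* replicate 3 and 0 were at least 2-fold low there. The sum over the 7 was 10468, 10352 and 7696 on the *gfp(RNAi)* arrays, and the 4 were *dpy-2*, *dpy-3* and *dpy-7*, which encode cuticle collagens, and *elt-1*, a GATA factor. The other 3, *lin-26*, *elt-3* and *ajm-1*, were not lowest there. Sums over 5 pharyngeal genes went the other way, at 6291, 7759 and 10168. The part of cell composition or developmental timing in this array was not tested. Each call of a member below is given with and without it.

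In *let-418(RNAi)* larvae, 13 members rose (7.10% of all genes did) and 3 fell (2.90% of all genes). The 13 were *wrt-8*, *grd-1*, *grd-5*, *grd-14*, *grl-1*, *grl-6*, *grl-16*, *grl-22*, *ptr-2*, *ptr-3*, *ptr-20*, *ptr-22* and *ptr-23*, and the 3 were *grl-21*, *ptc-1* and *ptr-9*. In *mep-1(RNAi)* larvae, 6 members rose (7.25% of all genes) and 3 fell (3.38% of all genes). The 6, *wrt-8*, *grd-14*, *grl-6*, *grl-22*, *ptr-3* and *ptr-20*, were all among the 13, and the genes that fell were *grl-8*, *grl-21* and *ptc-1*. The controls of the comparisons are the same 3 arrays, so a call made in both is not independent. At an adjusted p under 0.05 with no fold limit, 14 members were higher and 4 lower in *let-418(RNAi)* (10.4% and 5.94% of all genes), and 8 were higher and 5 lower in *mep-1(RNAi)* (10.9% and 6.67%). The median log2 FC of the 80 members was 0.35 and 0.29 in the respective comparisons, against -0.03 and 0.02 for all genes.

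Without *gfp(RNAi)* replicate 3 these shifts were smaller. The member medians became 0.02 and 0.04. In *let-418(RNAi)*, 8 members remained called higher (6.55% of all genes) and 1 lower (2.40%), and in *mep-1(RNAi)* 4 higher (6.80%) and 3 lower (2.93%). The calls kept were *grd-14*, *grl-6*, *grl-22* and *ptr-3* (higher in both), *grl-1*, *grl-16*, *ptr-22* and *wrt-8* (higher in *let-418(RNAi)*), *ptc-1* (lower in both), and *grl-8* and *grl-21* (lower in *mep-1(RNAi)*). Within batch 3 the median log2 difference of the members between *let-418(RNAi)* and *gfp(RNAi)* was 0.74, against 0.06 and 0.05 within batches 1 and 2. For *mep-1(RNAi)* it was 0.70, against 0.24 and 0.11. Over all members, 28 of 80 were above their control in each of the 3 batches in *let-418(RNAi)* (4316 of all 17118 genes were) and 33 of 80 in *mep-1(RNAi)* (4747 of all genes).

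When each of the 9 arrays was left out in turn, some calls held in all 9 fits. In *let-418(RNAi)* these were 5 of the 13 rises, *grd-14*, *grl-6*, *grl-22*, *ptr-3* and *ptr-22*, and 0 of the 3 falls. In *mep-1(RNAi)* they were 3 of the 6 rises, *grl-6*, *grl-22* and *ptr-3*, and all 3 falls. The other calls are given below with the arrays whose omission ended them.

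**Figure D2:**
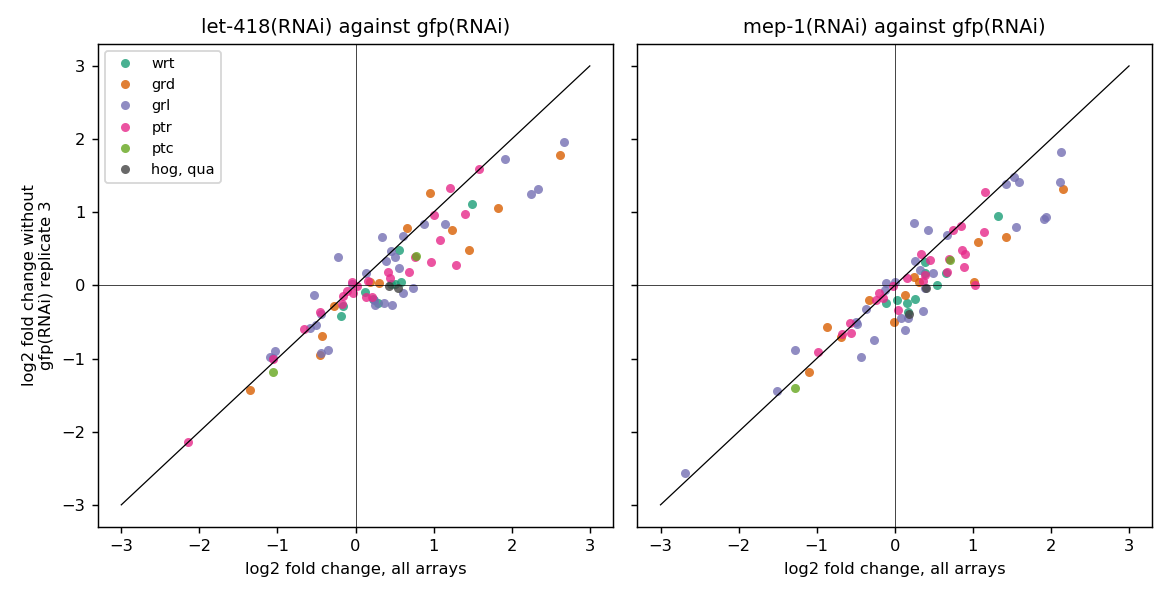
Log2 fold change against *gfp(RNAi)* of each of the 80 members with all arrays (x axis) and without *gfp(RNAi)* replicate 3 (y axis), coloured by family; the diagonal marks equal values. Many *grd*, *grl*, *wrt* and *ptr* points on the right lie below the diagonal. The median of all members moved from 0.35 to 0.02 for *let-418(RNAi)* and from 0.29 to 0.04 for *mep-1(RNAi)*.

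**Figure D3:**
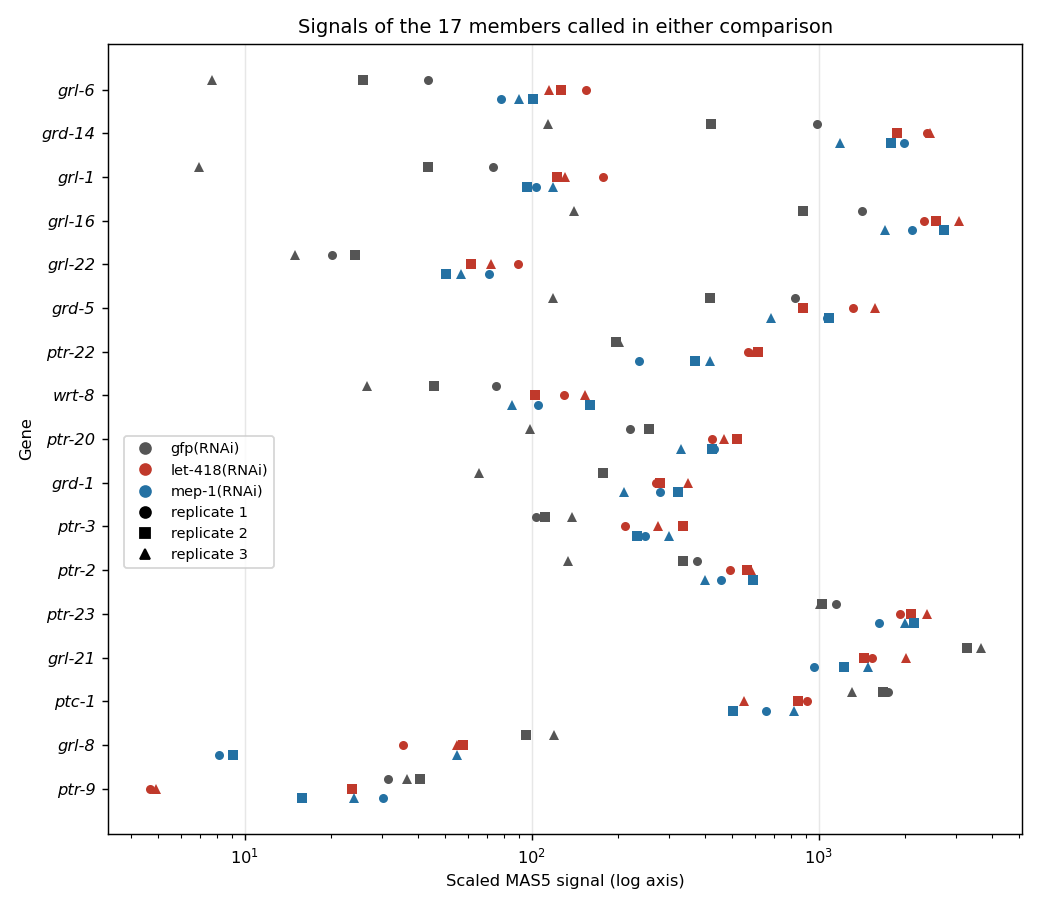
Scaled signal (log axis) on each of the 9 arrays for the 17 members called in either comparison with *gfp(RNAi)*, ordered by log2 fold change in *let-418(RNAi)*; colours mark groups and shapes replicates. The grey triangle, *gfp(RNAi)* replicate 3, lies far to the left for *grl-6*, *grd-14*, *grl-1*, *grl-16* and *grd-5*, and beside the other controls for *ptr-22*, *ptr-23* and *ptr-3*.

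Of the 10 *wrt* genes, *wrt-8* alone was called, higher in both comparisons. It read 75.1, 45.7 and 26.7 on the *gfp(RNAi)* arrays, 130, 103 and 153 on the *let-418(RNAi)* arrays and 105, 159 and 85.2 on the *mep-1(RNAi)* arrays. Neither knockdown group overlapped the controls, among which replicate 3 was lowest. The rise was 2.81-fold in *let-418(RNAi)* (log2 FC 1.49, SE 0.37, adjusted p = 0.0176 from limma) and 2.50-fold in *mep-1(RNAi)* (1.32, SE 0.37, adjusted p = 0.0299). Without *gfp(RNAi)* replicate 3 the first call held (1.11, adjusted p = 0.0493) and the second was lost (0.94, adjusted p = 0.0844), as it was with an offset of 21.6 added to all signals, which shrinks the changes of dim genes (0.99, under 2-fold). The first was lost without *let-418(RNAi)* replicate 1 or 3 (adjusted p = 0.0562 and 0.069), and the second also without *gfp(RNAi)* replicate 2 or *mep-1(RNAi)* replicate 1 or 2 (adjusted p = 0.0604 to 0.12).

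*wrt-10*, on the brightest *wrt* probe set, read 2687, 2951 and 2156 in *gfp(RNAi)*. It read 2127 to 2513 in *let-418(RNAi)* and 2041 to 2658 in *mep-1(RNAi)*, and the groups overlapped (log2 FC -0.16 and -0.11, adjusted p = 0.589 and 0.699 from limma). The other 8 *wrt* genes had log2 FC between -0.19 (*wrt-5*) and 0.58 (*wrt-4*) in *let-418(RNAi)*, and between 0.03 (*wrt-5*) and 0.65 (*wrt-9*) in *mep-1(RNAi)*. Several had widely spread controls: *wrt-1* read 1526, 2570 and 658 in *gfp(RNAi)*, and *wrt-4* 589, 530 and 185. Replicate 3 was the lowest control for 9 of the 10 *wrt* genes. Of *wrt-3*, at 103, 104 and 90.1 in the controls and 163, 155 and 121 in *let-418(RNAi)*, the groups did not overlap, but it missed the threshold (log2 FC 0.55, adjusted p = 0.0795).

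Among the 12 *grd* genes, 3 rose in *let-418(RNAi)* and 1 in *mep-1(RNAi)*. *grd-14* rose in both. It read 989, 420 and 114 in *gfp(RNAi)*, 2382, 1869 and 2435 in *let-418(RNAi)*, and 1988, 1779 and 1182 in *mep-1(RNAi)*. Every knockdown array exceeded every control. The rise was 6.12-fold (log2 FC 2.61, SE 0.57, adjusted p = 0.00923 from limma) and 4.45-fold (2.16, SE 0.57, adjusted p = 0.0239). Without *gfp(RNAi)* replicate 3 both calls held at smaller sizes, 1.78 (adjusted p = 0.00428) and 1.32 (adjusted p = 0.0208). The *mep-1(RNAi)* call was lost without *gfp(RNAi)* replicate 2 or *mep-1(RNAi)* replicate 1 or 2 (adjusted p = 0.0537 to 0.0759).

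*grd-5* read 825, 416 and 118 in *gfp(RNAi)*, 1320, 879 and 1570 in *let-418(RNAi)* and 1071, 1082 and 682 in *mep-1(RNAi)*. The *let-418(RNAi)* arrays were all above the controls, and the lowest *mep-1(RNAi)* array was not. It rose in *let-418(RNAi)* (log2 FC 1.83, SE 0.54, adjusted p = 0.0405 from limma), a call that was lost without *gfp(RNAi)* replicate 3 (1.06, adjusted p = 0.0582) and held in 1 of the 9 fits that each left out 1 array, the one without *gfp(RNAi)* replicate 1 (2.46, adjusted p = 0.00417). In *mep-1(RNAi)* it was not called (1.43, SE 0.54, adjusted p = 0.0974), except without *gfp(RNAi)* replicate 1 (2.06, adjusted p = 0.0109).

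*grd-1* read 177, 177 and 65.2 in *gfp(RNAi)*, 271, 281 and 351 in *let-418(RNAi)* and 279, 324 and 210 in *mep-1(RNAi)*. Both knockdown groups lay above all controls. It rose in *let-418(RNAi)* (log2 FC 1.24, SE 0.34, adjusted p = 0.0306 from limma), and without *gfp(RNAi)* replicate 3 the change was under 2-fold (0.76, adjusted p = 0.0386), while without any 1 *let-418(RNAi)* array it missed the adjusted p (0.0641 to 0.103). In *mep-1(RNAi)* it missed the threshold (1.07, adjusted p = 0.0535) and passed it with the batch as a replicate block (adjusted p = 0.0458) or without *gfp(RNAi)* replicate 1 or 2 (0.0334 and 0.043). A second probe set for *grd-1*, dimmer at 84.8, 96.2 and 54.8 in the controls, was not called in either comparison (0.85 and 0.87, adjusted p = 0.0725 and 0.0628).

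The remaining *grd* genes were not called. *grd-10*, on the brightest *grd* probe set, read 865, 534 and 606 in *let-418(RNAi)* and 571, 473 and 441 in *mep-1(RNAi)*. All *mep-1(RNAi)* arrays lay below the controls (log2 FC -0.69, SE 0.18, adjusted p = 0.0228 from limma), at less than 2-fold. *grd-3* had opposite signs in the 2 comparisons, with 727, 607 and 863 in *gfp(RNAi)*, 1290, 710 and 1630 in *let-418(RNAi)* and 494, 456 and 855 in *mep-1(RNAi)* (log2 FC 0.66 and -0.33, adjusted p = 0.19 and 0.539). *grd-2* read 130, 118 and 16.5 in the controls against 161 to 181 in *let-418(RNAi)*; its log2 FC of 1.45 (adjusted p = 0.143) became 0.48 without replicate 3.

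The 30 *grl* genes held members that rose and members that fell. In *let-418(RNAi)*, 4 rose (*grl-1*, *grl-6*, *grl-16* and *grl-22*) and 1 fell (*grl-21*), and in *mep-1(RNAi)* 2 rose (*grl-6* and *grl-22*) and 2 fell (*grl-8* and *grl-21*). *grl-6* had the largest rise of all members in *let-418(RNAi)*. It read 43.7, 25.7 and 7.68 in *gfp(RNAi)*, 154, 127 and 115 in *let-418(RNAi)* and 78.1, 101 and 89.9 in *mep-1(RNAi)*. The groups did not overlap. The rise was 6.38-fold (log2 FC 2.67, SE 0.50, adjusted p = 0.00354 from limma) and 4.35-fold (2.12, SE 0.50, adjusted p = 0.0131). It held without *gfp(RNAi)* replicate 3 (1.97 and 1.41, adjusted p = 0.00105 and 0.00795) and, at 1.77 and 1.31, with the offset. The methods' t-test called *grl-6* in neither comparison (unadjusted p = 0.0237 and 0.0475). This test also missed other called members, which are named in the closing section.

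*grl-22* was dim in the controls, at 20.1, 24.2 and 15.0, and higher in *let-418(RNAi)*, at 89.8, 61.3 and 72, and in *mep-1(RNAi)*, at 71.0, 50.2 and 56.8. Its lowest knockdown array was above its highest control. It rose 3.79-fold (log2 FC 1.92, SE 0.30, adjusted p = 0.00114 from limma) and 3.03-fold (1.60, SE 0.30, adjusted p = 0.00361), and both calls held without *gfp(RNAi)* replicate 3 (1.73 and 1.41). Since its controls lie near the 25th percentile of all signals, the fold is uncertain: with the offset it was 1.21 in *let-418(RNAi)* and, below 2-fold, 0.97 in *mep-1(RNAi)*.

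*grl-16* read 1411, 881 and 140 in *gfp(RNAi)*, 2320, 2566 and 3092 in *let-418(RNAi)* and 2106, 2739 and 1700 in *mep-1(RNAi)*. Every knockdown array was above every control. It rose in *let-418(RNAi)* (log2 FC 2.24, SE 0.63, adjusted p = 0.0332 from limma), also without *gfp(RNAi)* replicate 3 (1.24, adjusted p = 0.0065), but not without any 1 *let-418(RNAi)* array (adjusted p = 0.0719 to 0.0982). In *mep-1(RNAi)* it missed the threshold (1.94, SE 0.63, adjusted p = 0.058) and passed it with the replicate block (adjusted p = 0.0481) or without *gfp(RNAi)* replicate 1 (2.61, adjusted p = 0.011). *grl-1* had the same order of groups at a lower signal, with 73.2, 43.7 and 6.93 in *gfp(RNAi)*, 178, 122 and 130 in *let-418(RNAi)* and 104, 96.1 and 118 in *mep-1(RNAi)*. It rose in *let-418(RNAi)* (2.33, SE 0.66, adjusted p = 0.0327; without replicate 3, 1.32, adjusted p = 0.00998; without any 1 *let-418(RNAi)* array, adjusted p = 0.0717 to 0.103) and was not called in *mep-1(RNAi)* (1.91, adjusted p = 0.0701). It was called there without *gfp(RNAi)* replicate 1 (2.60, adjusted p = 0.0139) and with the offset (1.18, adjusted p = 0.0426).

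*grl-21*, on the brightest *grl* probe set, fell in both comparisons. It read 3267, 3295 and 3671 in *gfp(RNAi)*, 1532, 1436 and 2016 in *let-418(RNAi)* and 959, 1224 and 1481 in *mep-1(RNAi)*. The control arrays were close to each other and lay well above all knockdown arrays, while the knockdown groups overlapped. The log2 FC was -1.05 (SE 0.18, adjusted p = 0.00214 from limma) and -1.50 (SE 0.18, adjusted p = 0.000153). Without *gfp(RNAi)* replicate 3 the first lay just under the fold limit (-0.998, adjusted p = 0.00839), as it did without *let-418(RNAi)* replicate 2 (-0.95, adjusted p = 0.0136), and the second held (-1.45).

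*grl-8* fell in *mep-1(RNAi)*. It read 94.7, 95.5 and 120 in *gfp(RNAi)*, 35.7, 57.5 and 54.8 in *let-418(RNAi)*, and 8.15, 9.13 and 55.0 in *mep-1(RNAi)*. All knockdown arrays lay below the controls, with *mep-1(RNAi)* replicate 3 apart from its replicates and at the level of the *let-418(RNAi)* arrays. The log2 FC was -2.68 (SE 0.60, adjusted p = 0.0101 from limma) in *mep-1(RNAi)* and -1.09 (SE 0.60, adjusted p = 0.277) in *let-418(RNAi)*, where it was called without *mep-1(RNAi)* replicate 3 (adjusted p = 0.0327), since all groups share 1 estimate of the spread. With the offset they were -1.59 (adjusted p = 0.00595) and -0.83.

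Several bright *grl* genes were not called. *grl-4* read 1899, 1926 and 2192 in *gfp(RNAi)* and 2716, 2806 and 3692 in *let-418(RNAi)*, with no overlap but under 2-fold (log2 FC 0.60, SE 0.15, adjusted p = 0.0167 from limma). *grl-7* read 2556, 2252 and 669 in *gfp(RNAi)* against 1998, 2005 and 2075 in *let-418(RNAi)*, and its second probe set showed the same low control array, at 2323, 2180 and 544. Without replicate 3 the sign of *grl-7* turned (0.37 to -0.24 in *let-418(RNAi)* and 0.17 to -0.44 in *mep-1(RNAi)*), as it did for *grl-5* (0.61 to -0.11 and 0.37 to -0.35) and *grl-15* (0.47 to -0.27 and 0.13 to -0.61). *grl-2*, known for expression in the excretory duct and pore cells, read 139, 161 and 50.2 in the controls and 104 to 133 on the 6 knockdown arrays.

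*hog-1*, which encodes a Hog domain protein without the amino-terminal domains of the other families, read 508, 366 and 130 in *gfp(RNAi)*, 482, 378 and 410 in *let-418(RNAi)* and 482, 325 and 226 in *mep-1(RNAi)*. The groups overlapped (log2 FC 0.54 and 0.19, SE 0.42, adjusted p = 0.457 and 0.828 from limma). *qua-1*, which is needed for molting, read 725, 802 and 307 in *gfp(RNAi)*, 907, 869 and 554 in *let-418(RNAi)* and 891, 784 and 588 in *mep-1(RNAi)* (0.43 and 0.40, SE 0.33, adjusted p = 0.455 and 0.479). Both genes were low on *gfp(RNAi)* replicate 3, and without that array their log2 FC were -0.03 and -0.39 (*hog-1*) and -0.01 and -0.04 (*qua-1*).

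Of the patched genes, *ptc-1* and *ptc-3* were measured alone, and *ptc-2* was measured only by a probe set that also names *ptc-1*. *ptc-1*, which is known for its role in cytokinesis of the germline, fell in both comparisons. It read 1737, 1676 and 1304 in *gfp(RNAi)*, 907, 843 and 548 in *let-418(RNAi)* and 653, 503 and 820 in *mep-1(RNAi)*. The lowest control was above the highest knockdown array. The log2 FC was -1.06 (SE 0.23, adjusted p = 0.00795 from limma) and -1.27 (SE 0.23, adjusted p = 0.00242), and -1.19 and -1.40 without *gfp(RNAi)* replicate 3. In *let-418(RNAi)* it was under 2-fold without *gfp(RNAi)* replicate 1 (-0.98) or *let-418(RNAi)* replicate 3 (-0.83). A second probe set read 321, 389 and 389 in the controls, 233, 266 and 237 in *let-418(RNAi)* and 128, 107 and 212 in *mep-1(RNAi)*; it was called in *mep-1(RNAi)* (-1.36, adjusted p = 0.0018) and not in *let-418(RNAi)* (-0.57, adjusted p = 0.127). The 7 germline markers all rose in both comparisons, but most of them had already been reported as upregulated in these larvae. Whether the fall of *ptc-1* relates to germline RNA was not tested.

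*ptc-3*, an essential gene with roles in epidermal and osmotic function, read 747, 990 and 404 in *gfp(RNAi)*, 994, 1244 and 1202 in *let-418(RNAi)* and 1077, 1617 and 747 in *mep-1(RNAi)*. The *let-418(RNAi)* arrays lay above the controls by a narrow margin, and the *mep-1(RNAi)* arrays overlapped them. It was not called (log2 FC 0.77 and 0.71, SE 0.32, adjusted p = 0.143 and 0.169 from limma).

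Among the 24 *ptr* genes, 5 rose and 1 fell in *let-418(RNAi)*, and 2 rose in *mep-1(RNAi)*. Of these, *ptr-22*, *ptr-23* and *ptr-3* had control arrays that were close to each other. *ptr-22* read 197, 197 and 201 in *gfp(RNAi)*, 567, 616 and 595 in *let-418(RNAi)*, and 236, 372 and 417 in *mep-1(RNAi)*. The 3 groups did not overlap, and the *mep-1(RNAi)* arrays lay between the others. It rose 2.99-fold in *let-418(RNAi)* (log2 FC 1.58, SE 0.19, adjusted p = 0.000187 from limma), the lowest adjusted p of all members in that comparison, and was under 2-fold in *mep-1(RNAi)* (0.74, SE 0.19, adjusted p = 0.022). Without *gfp(RNAi)* replicate 3 these were 1.59 and 0.75.

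*ptr-3* rose in both, from 103, 111 and 138 in *gfp(RNAi)* to 212, 336 and 275 in *let-418(RNAi)* and 249, 233 and 301 in *mep-1(RNAi)*. Of the 13 genes that rose, *ptr-3* and *ptr-22* had their highest, not their lowest, control signal on *gfp(RNAi)* replicate 3. The log2 FC was 1.21 (SE 0.21, adjusted p = 0.00192 from limma) and 1.15 (SE 0.21, adjusted p = 0.00251), and 1.33 and 1.27 without that array.

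*ptr-23*, loss of which is known to suppress defects of *osm-8* mutants in osmotic regulation, was measured by 4 probe sets. On the brightest it read 1152, 1025 and 1009 in *gfp(RNAi)*, 1918, 2095 and 2387 in *let-418(RNAi)* and 1626, 2146 and 1996 in *mep-1(RNAi)*. It just passed the fold limit in *let-418(RNAi)* (log2 FC 1.00, SE 0.15, adjusted p = 0.000667 from limma), and without *gfp(RNAi)* replicate 3 (0.97), *gfp(RNAi)* replicate 2 (0.98) or *let-418(RNAi)* replicate 3 (0.92) it did not. In *mep-1(RNAi)* the log2 FC was 0.85 (adjusted p = 0.00201). The other probe sets gave 1.11, 1.27 and 0.69 in *let-418(RNAi)* and 1.02, 0.93 and 0.55 in *mep-1(RNAi)*, all in the same direction; 3 of the 4 were called in *let-418(RNAi)* and 1 of the 4 in *mep-1(RNAi)*.

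*ptr-20* rose in both, with 220, 256 and 98.8 in *gfp(RNAi)*, 425, 519 and 467 in *let-418(RNAi)* and 431, 425 and 331 in *mep-1(RNAi)* (log2 FC 1.40 and 1.15, SE 0.30, adjusted p = 0.00751 and 0.0207 from limma). The knockdown arrays were all above the controls, and without *gfp(RNAi)* replicate 3 both changes were under 2-fold (0.98 and 0.73, adjusted p = 0.00358 and 0.0183). The *mep-1(RNAi)* call was also lost without *mep-1(RNAi)* replicate 1 or 2 (adjusted p = 0.0635 and 0.0714). *ptr-2* read 375, 335 and 134 in *gfp(RNAi)*, 492, 562 and 580 in *let-418(RNAi)* and 457, 591 and 403 in *mep-1(RNAi)*. It rose in *let-418(RNAi)* (1.08, SE 0.32, adjusted p = 0.0424), a call lost in 7 of the 9 fits without 1 array (0.61, adjusted p = 0.0505, without *gfp(RNAi)* replicate 3; adjusted p = 0.08 to 0.115 without a *let-418(RNAi)* array and 0.0504 to 0.0583 without a *mep-1(RNAi)* array), and was not called in *mep-1(RNAi)* (0.90, adjusted p = 0.0831). Its other probe sets differed in call, 1 being called in *mep-1(RNAi)* only (1.04, adjusted p = 0.0476) and the other, a dim one, in neither.

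*ptr-9* fell in *let-418(RNAi)*, at a low signal. It read 31.6, 40.8 and 36.6 in *gfp(RNAi)*, 4.66, 23.7 and 4.92 in *let-418(RNAi)* and 30.3, 15.8 and 24.0 in *mep-1(RNAi)*. The log2 FC in *let-418(RNAi)* was -2.15 (SE 0.60, adjusted p = 0.0309 from limma). With the offset it was -0.87, and without *gfp(RNAi)* replicate 3 the adjusted p was 0.0748, and the call was also lost without *gfp(RNAi)* replicate 1 or 2 or *let-418(RNAi)* replicate 1 or 3 (adjusted p = 0.0578 to 0.11). *ptr-8*, on the brightest *ptr* probe set, read 1472, 1793 and 1847 in *gfp(RNAi)*, 1033, 1068 and 1126 in *let-418(RNAi)* and 705, 963 and 939 in *mep-1(RNAi)*. Every knockdown array was below every control, and the changes stayed under 2-fold (-0.66, adjusted p = 0.0132, and -0.98, adjusted p = 0.00104), although the second passed it without *gfp(RNAi)* replicate 1 (-1.08), *mep-1(RNAi)* replicate 2 (-1.06) or *mep-1(RNAi)* replicate 3 (-1.04).

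**Figure D4:**
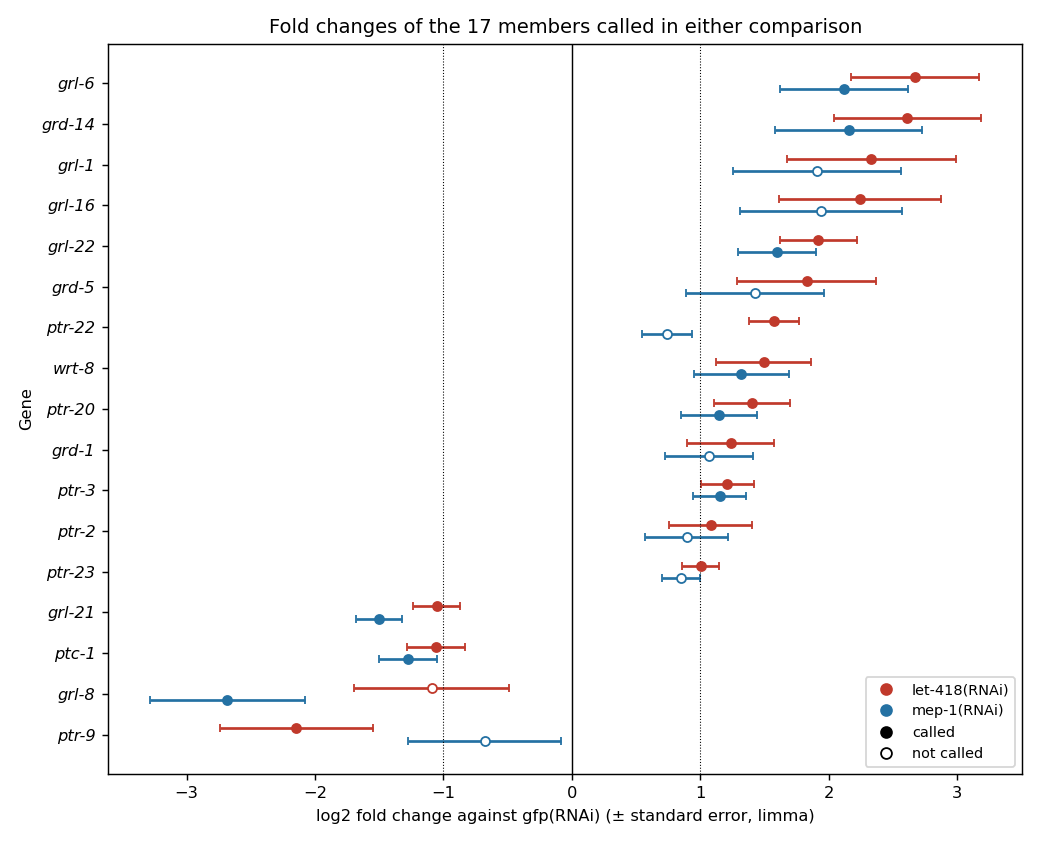
Log2 fold change against *gfp(RNAi)* with its standard error from limma (x axis) for the 17 members called in either comparison (y axis). Filled points were called and open points were not, and dotted lines mark 2-fold. All 17 have the same sign in both comparisons, which share their controls; *grl-6* lies highest at 2.67 in *let-418(RNAi)* and *grl-8* lowest at -2.68 in *mep-1(RNAi)*.

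The other *ptr* genes were not called and ranged in log2 FC from -1.06 (*ptr-21*) to 1.29 (*ptr-16*) in *let-418(RNAi)* and from -0.58 (*ptr-21*) to 1.02 (*ptr-16*) in *mep-1(RNAi)*, leaving *ptr-8* aside. *ptr-16* and *ptr-18* were among those that shifted with a single control array: their log2 FC in *let-418(RNAi)* of 1.29 and 0.96 became 0.27 and 0.32 without *gfp(RNAi)* replicate 3. *ptr-21* read 51.7, 49.5 and 57.1 in *gfp(RNAi)* and 20.7, 30.7 and 25.3 in *let-418(RNAi)*, with no overlap (adjusted p = 0.0852 from limma). It was called lower there by the methods' t-test (unadjusted p = 0.00373) and by limma with only the 6 arrays compared (adjusted p = 0.0449). *ptr-24* stayed close to its controls, with 790, 916 and 805 in *gfp(RNAi)*, 805, 923 and 823 in *let-418(RNAi)* and 638, 838 and 794 in *mep-1(RNAi)*. By overlap alone, all 3 *let-418(RNAi)* arrays lay above all controls for 19 of the 80 members and below for 9 (18.8% and 16.2% of all genes), and the *mep-1(RNAi)* arrays for 19 and 8 (19.0% and 15.4%), which is near the background.

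No member was called between the knockdowns. Of all genes, 0% were called higher and 0.00584% lower in *mep-1(RNAi)* than in *let-418(RNAi)*. The lowest adjusted p among members was 0.473 from limma, for *ptr-22* (log2 FC -0.84, SE 0.19), and at an unadjusted p under 0.05, 1 member was higher and 7 were lower in *mep-1(RNAi)*. The methods' t-test called none. The log2 FC ran from -1.83 (*grd-9*, a dim gene) to 1.47 (*ptr-9*), with a median of -0.07. For *grd-5*, *grl-1*, *grl-16* and *ptr-2*, called in *let-418(RNAi)* and not in *mep-1(RNAi)*, no difference between the knockdowns was detected: the direct log2 FC of these 4 genes lay between -0.42 and -0.19, with SE of 0.32 to 0.66. The same held for *grd-1* and *ptr-23* (-0.16 and -0.15, SE 0.34 and 0.15). *ptr-22* and *ptr-9*, also called in *let-418(RNAi)* only, lay further apart (-0.84 and 1.47, unadjusted p = 0.00119 and 0.031 from limma), and neither was called directly. For *grl-8* the direct log2 FC was -1.59 (SE 0.60, adjusted p = 0.825), and without *mep-1(RNAi)* replicate 3 it was called, at -2.48 (adjusted p = 0.0358).

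Some members lie next to each other among protein-coding genes: *wrt-1* and *wrt-10*, *grd-3* and *grd-10*, *grl-9* and *grl-8*, and *grl-29*, *grl-30* and *grl-31*. No neighbouring pair was called together. Beside the fall of *grl-8* in *mep-1(RNAi)*, *grl-9* read 143, 144 and 142 in *gfp(RNAi)* and 138, 96.7 and 78.4 in *mep-1(RNAi)* (log2 FC -0.50, adjusted p = 0.16 from limma). *wrt-1*, low on *gfp(RNAi)* replicate 3, neighbours *wrt-10*, which was 1.31-fold lower there.

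Beyond the ligand-like and receptor-like families, 12 of 13 listed homologues of other Hedgehog pathway parts and sterol-sensing proteins were measured alone, and none was called in either comparison. *tra-1*, the Gli-type transcription factor best known for sex determination, read 165, 71.5 and 121 in *gfp(RNAi)* and 245, 162 and 256 in *let-418(RNAi)* (log2 FC 0.95, adjusted p = 0.0479 from limma, under 2-fold). *che-14*, a Dispatched-like gene for apical secretion, read 458, 444 and 127 in *gfp(RNAi)*. *daf-6*, a Patched-related gene that shapes glial channels, read 302, 293 and 104. These 2 of the 12 were at least 2-fold low on *gfp(RNAi)* replicate 3. *lrp-1*, the megalin homologue, was also lowest there by less (1303, 1649 and 989), and *scp-1*, the SCAP homologue, was not (279, 328 and 373). The median log2 FC of the 12 genes was 0.26 in *let-418(RNAi)* and 0.10 in *mep-1(RNAi)*.

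Of 21 listed genes of epidermal regulation and molting, 3 rose in both comparisons and none fell. *bli-5*, which encodes a protein with a protease-inhibitor domain, read 39.0, 12.7 and 3.94 in *gfp(RNAi)*, 135, 93.9 and 127 in *let-418(RNAi)* and 77.2, 105 and 51.5 in *mep-1(RNAi)* (log2 FC 3.23 and 2.58, adjusted p = 0.00543 and 0.018 from limma; without *gfp(RNAi)* replicate 3, 2.40 and 1.75, adjusted p = 0.00579 and 0.0287). *lin-29*, a zinc-finger factor of the larval-to-adult switch, rose from 53.9, 67.3 and 57.4 to 144, 224 and 108 and to 201, 126 and 151 (1.35 and 1.40, adjusted p = 0.00663 and 0.00508). Its controls were close together, and both calls held without *gfp(RNAi)* replicate 3 (1.33 and 1.38, adjusted p = 0.0189 and 0.0147). *nas-36*, a protease needed for molting, read 110, 67.1 and 27.9 in *gfp(RNAi)*; its calls (1.58 and 1.53, adjusted p = 0.0334 and 0.0367) were lost without *gfp(RNAi)* replicate 3 (1.04 and 0.99, adjusted p = 0.0804 and 0.088). On that control array, 5 of the 21 genes were at least 2-fold low, among them *bed-3* (548, 563 and 226), *lin-42* (428, 287 and 114) and *mlt-10* (466, 455 and 166), all known from the molting cycle. *nhr-23* and *nhr-25*, nuclear receptors needed for molting, were not, at 232, 293 and 283 and at 705, 654 and 636.

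Markers of other tissues were read in the same way. Of the 7 germline genes, the authors had already reported *glh-1*, *pgl-1*, *him-3*, *htp-3* and *gld-1* as upregulated in these larvae. The others were *prg-1* and *rec-8*. The rise of this list was thus largely known in advance and does not show which tissue the RNA came from. All 7 germline genes rose in both comparisons, and their summed signal went from 957 to 1019 on the *gfp(RNAi)* arrays to 7649 to 9712 in *let-418(RNAi)* and 9937 to 11647 in *mep-1(RNAi)*. None of 7 epidermal, 4 seam or 6 glial markers was called, and summed epidermal signals overlapped between groups. The seam marker *nhr-72* was at 0.346 to 9.69 on all arrays and *delm-1*, a glial marker, at 3.08 to 18.4, near background. Of 7 intestinal markers, *elt-2*, a GATA factor of the intestine, rose in both (log2 FC 1.25 and 1.39, and 1.14 and 1.27 without *gfp(RNAi)* replicate 3), but the list mostly lay lower. At an adjusted p under 0.05 and under 2-fold, *act-5*, *ges-1*, *pept-1* and *vha-6* were lower in *let-418(RNAi)*, and *ges-1* and *vha-6* in *mep-1(RNAi)*. The median log2 FC of the intestinal list was -0.50 and -0.36. Its summed signal was 18490 to 21251 in *gfp(RNAi)*, 13849 to 16058 in *let-418(RNAi)*, with no overlap, and 15216 to 18820 in *mep-1(RNAi)*. The pharyngeal list also lay lower, with a median log2 FC of -0.62 and -0.66 and 4 of 5 markers below 0 in each comparison. No pharyngeal marker was called, but 3 of the 5 lay below all controls in each comparison, and the summed signal was 4669 to 5122 in *let-418(RNAi)*, below all controls, and 3938 to 6370 in *mep-1(RNAi)*. Of 6 neuronal markers *rab-3* fell in *mep-1(RNAi)* (-1.12), and no marker of body wall muscle (5) was called. The part of these shifts in the values of the Hedgehog-related and Patched-related genes was not tested.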

How the data were processed

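The deposited values are linear intensity signals that the authors made with AGCC and MAS5 (versions not given in the sources used here). The 9 columns were matched to arrays by label, and 0 columns were left unmatched. The methods name a global scaling, but trimmed means differed between arrays, so each array was multiplied by a factor (0.758 to 1.58) that brought its mean, after trimming 2% at each end, to 330. Detection calls were not used here. Signals were tested as log2 values with limma 3.58.1 in R 4.3.3 (lmFit, eBayes with an intensity trend, 3 group means over 9 arrays, 2-sided). The calling was tested on simulated data. Tables and figures were made with Python 3.11.15, numpy 2.4.6, pandas 2.3.3 and matplotlib 3.10.9.

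Of 22548 probe sets, 20766 named 1 gene, 887 several and 895 none in the platform annotation. Neighbours came from the RefSeq annotation. Of the 80 members, 25 are represented by probe sets whose suffix marks possible matches to more than 1 transcript, among them 5 of the 17 called, and these are less certain. The batch number used here equals the replicate number in the array titles, and arrays were paired by it. The methods do not state that arrays of the same number were prepared together. Residuals of arrays with the same number correlated at -0.03 to 0.10 (9 pairs) and others at -0.14 to 0.10 (18 pairs). A fit with batch as a block was run as an alternative. Per the methods, RNA was isolated from independent batches of packed worms.

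The members and the lists of pathway genes and markers were chosen with earlier results of these data known. Genes named are the called members, the member with the highest *gfp(RNAi)* signal of each family, *hog-1*, *qua-1* and the *ptc* genes, members whose probe sets differ in call and called pathway genes; others were chosen after their values were seen. A planned search of promoters for motifs was not run. Alternatives were quantile normalization, unscaled signals, an offset of 21.6, the dimmest 25% of probe sets left out, no trend, the 6 arrays compared, the replicate block, the methods' t-test, no fold limit, the mean of probe sets and each array left out; leaving out all of batch 3 was added after seeing the data. Precision is limited by 3 arrays per group. No sequences are shown.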

Additional observations from a re-analysis of the deposited data

How the results depend on the processing

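The number of members called higher in *let-418(RNAi)* (13) was 8 without the intensity trend, 8 with only the 6 arrays compared, 7 without batch 3, 4 by the methods' t-test (unadjusted p of at most 0.01) and 3 by that test after Benjamini-Hochberg, and 6 to 13 when each array was left out, the lowest without *let-418(RNAi)* replicate 3 and 7 without *let-418(RNAi)* replicate 1. The number called lower (3) was 1 without batch 3 and 1 to 4 with an array left out (1 without *gfp(RNAi)* replicate 1, *gfp(RNAi)* replicate 3 or *let-418(RNAi)* replicate 3). For *mep-1(RNAi)*, 6 higher became 3 with unscaled signals, 3 without the trend, 2 by the t-test, 2 by it after adjustment, and 3 to 11 with an array left out (3 without *mep-1(RNAi)* replicate 1 or 2, and 11 without *gfp(RNAi)* replicate 1). The 3 lower became 1 by the adjusted t-test, 5 with no fold limit and 3 to 4 with an array left out. In *let-418(RNAi)*, the unadjusted t-test lost the calls of *wrt-8*, *grd-1*, *grd-5*, *grd-14*, *grl-1*, *grl-6*, *grl-16*, *ptr-2*, *ptr-20*, *ptc-1* and *ptr-9*. In *mep-1(RNAi)* it lost those of *wrt-8*, *grd-14*, *grl-6*, *ptr-20* and *grl-8*. Between the knockdowns the number lower was 0 to 1, with *grl-8* called without *mep-1(RNAi)* replicate 3. With the replicate block the counts were 13 and 3 in *let-418(RNAi)* and 8 and 3 in *mep-1(RNAi)*; it added *grd-1* and *grl-16* and changed no other call of a member named.

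Among single genes, *hog-1* and *qua-1*, not called in any fit, changed sign. With an array left out, the log2 FC of *hog-1* ran from -0.033 to 0.95 in *let-418(RNAi)* and from -0.39 to 0.59 in *mep-1(RNAi)*, and that of *qua-1* from -0.0076 to 0.68 and from -0.037 to 0.65, each lowest without *gfp(RNAi)* replicate 3. *hog-1* was also below 0 without batch 3 (-0.014 and -0.12), with unscaled signals (-0.10 in *mep-1(RNAi)*) and without *mep-1(RNAi)* replicate 1 (-0.09). With unscaled signals, the calls of *grd-1*, *ptr-2*, *ptr-3*, *ptr-23* and *ptc-1* in *let-418(RNAi)* and of *grl-22*, *ptr-3*, *ptr-20* and *wrt-8* in *mep-1(RNAi)* were lost, while *grl-16* (1.65, adjusted p = 0.0422 from limma) and *ptr-8* (-1.26, adjusted p = 0.00916) were called in *mep-1(RNAi)*. The cause of these changes was not tested. With the offset, which bears on dim signals, *ptr-9* in *let-418(RNAi)* and *grl-22* and *wrt-8* in *mep-1(RNAi)* were under 2-fold, and *grl-8* in *mep-1(RNAi)* went from -2.68 to -1.59. The bright *ptr-23*, which lay on the fold limit in *let-418(RNAi)*, moved only from 1.003 to 0.989 and was then also under 2-fold.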
